A study of Mus musculus with 12 samples.

Results

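The testis germ cell family described here comprises 10 mouse miRNA hairpins, mmu-mir-741, mmu-mir-743a, mmu-mir-470, mmu-mir-471, mmu-mir-871, mmu-mir-878, mmu-mir-880, mmu-mir-881, mmu-mir-883a and mmu-mir-463, chosen by name as rodent members of the X-linked mir-506 family. The prefix for mouse is left out below. They were 10 of the 1047 miRNA hairpins with at least 1 read in any of the 12 small RNA libraries of the study. For each hairpin the reads with and without a genome match were added and expressed as CPM, the count per 1000000 reads matched to miRNAs in that library, with an absent hairpin taken as 0. All 10 had reads in each of the 6 sperm libraries, and 6 had reads in at least 1 library of TM4 cells, a mouse Sertoli cell line.

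The sperm came from C57BL6/J males that received a control diet (CD) or a high-fat diet (HFD) for 7 weeks, and both diets had 3 libraries. The labels put the start at 4 weeks of age, and the legend to the paper's body weights puts it later. By the sample labels fat supplied 16% of the energy of the CD and 69% of that of the HFD, and the paper's methods state a different share for the HFD. Each sperm library came from the pooled sperm of 3 mice, so mouse-to-mouse spread within a pool was not measured. The TM4 libraries, 2 per group, came from untreated cells (Ctrl), cells given 10 µM Compound C (CC), a kinase inhibitor used against AMPK, for 12 hours, and cells that overexpressed the full-length coding sequence of Ang, which encodes the ribonuclease angiogenin (Ang OE). Nothing in the labels says that the TM4 replicates were separate cultures, so p-values for these cells measure the spread between libraries, which may be technical.

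A miRNA is cut from a hairpin precursor as a 5′ (5p) or a 3′ (3p) strand of the stem, and the seed near its 5′ end directs the silencing complex to partly complementary mRNAs. The mir-506 family is a fast-evolving group of miRNA genes on the X chromosome, found as tandem copies and known for expression in testicular germ cells. Mature sperm leave the testis and pass through the epididymis, where they meet epithelial cells and their vesicles before they are collected. Sertoli cells are the somatic nurse cells of the seminiferous tubule.

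In the mouse build GRCm38.p6, the assembly of the mm10 build in the labels, the 10 hairpins lie on the minus strand of the X chromosome between 66776757 and 66814025, a span of 37.3 kb. RefSeq places no protein-coding gene in this span and no other gene over any of the 10 hairpins, so all are intergenic. The nearest protein-coding genes are Gm52436 at 16.1 kb and Gm52439 at 234 kb. The span holds 13 hairpins in all, the others being mir-742, mir-743b and mir-883b. In the direction of transcription mir-470 comes first, followed by mir-871, mir-881, mir-878, mir-880, mir-463, mir-741, mir-471, mir-883a and mir-743a.

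RefSeq gives 20 mature sequences of 21 to 23 nt for the 10 hairpins. The hairpins of the 2 most abundant members, mir-871 (chrX:66810428-66810504) and mir-470 (chrX:66813951-66814025), are shown first, since they supplied most of the reads below, with both mature strands in capitals.
mir-871: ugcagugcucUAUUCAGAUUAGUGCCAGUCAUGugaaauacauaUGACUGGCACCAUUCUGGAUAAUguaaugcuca
mir-470: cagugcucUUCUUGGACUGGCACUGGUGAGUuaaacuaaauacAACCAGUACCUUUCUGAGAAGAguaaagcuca

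The 20 mature sequences carry 19 different seeds (bases 2 to 8, in capitals below). The pair with a common seed is miR-871-5p and miR-743a-5p, from the most abundant member and a scarce one.
miR-871-5p: uAUUCAGAuuagugccagucaug
miR-743a-5p: uAUUCAGAuuggugccugucau
These sequences share their first 10 bases, UAUUCAGAUU, a run found in none of 1639 other mature mouse sequences. miR-470-5p and miR-871-3p share the 9 bases GACUGGCAC at different places, from base 7 in the first and from base 2 in the second, so their seeds differ.
miR-470-5p: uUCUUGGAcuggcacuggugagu
miR-871-3p: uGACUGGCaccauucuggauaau
The strands of the next members, mir-881 and mir-741, share a seed with no other mature mouse sequence in the table, as their 3p strands show.
miR-881-3p: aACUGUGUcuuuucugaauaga
miR-741-3p: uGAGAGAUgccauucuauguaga
The closest copies outside the 10 are miR-883b-3p, with 1 mismatch to miR-883a-3p, and miR-743b-3p, with 3 mismatches to miR-743a-3p, and both pairs have a common seed.
miR-883a-3p: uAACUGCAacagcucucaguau
miR-883b-3p: uAACUGCAacaucucucaguau
miR-743a-3p: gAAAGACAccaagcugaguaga
miR-743b-3p: gAAAGACAucaugcugaauaga
Since the annotation allowed a mismatch, reads of mir-883b may have been counted for mir-883a and the reverse, and the level of mir-883a is uncertain to that extent. All 120 deposited values of the 10 hairpins were whole numbers, whereas 25.1% of all hairpins had a fractional value in some library from reads divided among hairpins. The counts are per hairpin, so the 5p and 3p strands cannot be told apart.

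The sperm libraries held 11412945 to 14822686 miRNA reads and the TM4 libraries 27651384 to 35704399, and replicates differed by more than counting noise. Intervals of CPM, of shares of reads and of folds over pooled Ctrl reads are exact at the 95% level and cover counting error only. Markers of other cells were present in sperm. The 5 epithelial hairpins of the mir-200 family and mir-141 summed to 8946 to 14327 CPM in sperm and 1.28 to 2.38 CPM in TM4 cells. The 4 red blood hairpins, led by mir-486a, summed to 25239 to 50595 CPM in sperm and 1762 to 2857 CPM in TM4 cells. Of the muscle list, mir-143 dominated in both sources. The list summed to 30652 to 56169 CPM in sperm and 49715 to 129039 CPM in TM4 cells, so it was not particular to sperm. The 5 germ cell hairpins of the mir-34 and mir-449 families summed to 1874 to 3411 CPM in sperm and also to 958 to 2066 CPM in TM4 cells, so this list did not separate the sources by presence. The hairpin taken to mark Sertoli and other gonadal somatic cells, mir-202, stood at 4.86 to 59.8 CPM in sperm and at 0 to 0.178 CPM in TM4 cells, at 0 in 3 of them, so the labelled Sertoli identity of TM4 cells was not borne out by this marker.

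The family was a minor but readily counted part of sperm miRNA. Its summed level was 1893, 7627 and 3005 CPM in CD replicates 1, 2 and 3 and 3399, 1563 and 1300 CPM in HFD replicates 1, 2 and 3. The 2 diets overlapped, with CD replicate 2 far above the other libraries and HFD replicate 1 above CD replicates 1 and 3. These sums correspond to 19263 to 87048 reads, or 0.13% to 0.763% of the miRNA reads. In pooled sperm, fewer cells that carry a miRNA and less of it per cell cannot be told apart.

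mir-871 was the highest member in each sperm library. It stood at 932, 4299 and 1636 CPM in CD replicates 1 to 3 and at 1702, 754 and 636 CPM in HFD replicates 1 to 3, and ranked 43 among the 1001 hairpins detected in sperm. mir-470 followed at 555, 1897 and 634 CPM on the CD and 930, 337 and 239 CPM on the HFD. In both hairpins CD replicate 2 was highest and HFD replicate 3 lowest, and the diets overlapped. Together the 2 neighbours gave 67.4% to 81.2% of the family's reads, and mir-871 alone gave 48.2% to 56.4%.

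mir-881 and mir-741 formed the next tier. mir-881 was at 191, 520 and 334 CPM on the CD and 317, 250 and 209 CPM on the HFD. mir-741 was at 130, 658 and 257 CPM on the CD and 287, 123 and 126 CPM on the HFD. mir-881 exceeded mir-741 in 5 of 6 libraries and fell below it in CD replicate 2, so the order of these 2 was not fixed. The 4 highest hairpins made up 93.2% to 96.7% of the family's reads.

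The remaining 6 hairpins shared 3.32% to 6.85% of the reads. mir-878 was the highest of them, at 36.5, 94.3 and 57 CPM on the CD and 57.1, 45.7 and 35.7 CPM on the HFD. mir-743a, which shares a seed with mir-871, was at 14.6, 44.2 and 28.2 CPM on the CD and 34, 18.5 and 18.2 CPM on the HFD. It could not be ranked against mir-883a, at 14.7 to 44.7 CPM, since each was the higher in 3 of 6 libraries. mir-463 ranged from 8.03 to 38.3 CPM and mir-471 from 6.38 to 21.3 CPM. mir-880 was the lowest member in each library, at 3.58, 10.7 and 4.43 CPM on the CD and 5.45, 3.63 and 2.29 CPM on the HFD, with a rank of 288. For every other pair of neighbours in the order the upper hairpin was higher in 6 of 6 libraries. Dividing each mean by the hairpin's length, 62 to 78 nt, left the order of the 10 means as it was.

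**Figure D1:**
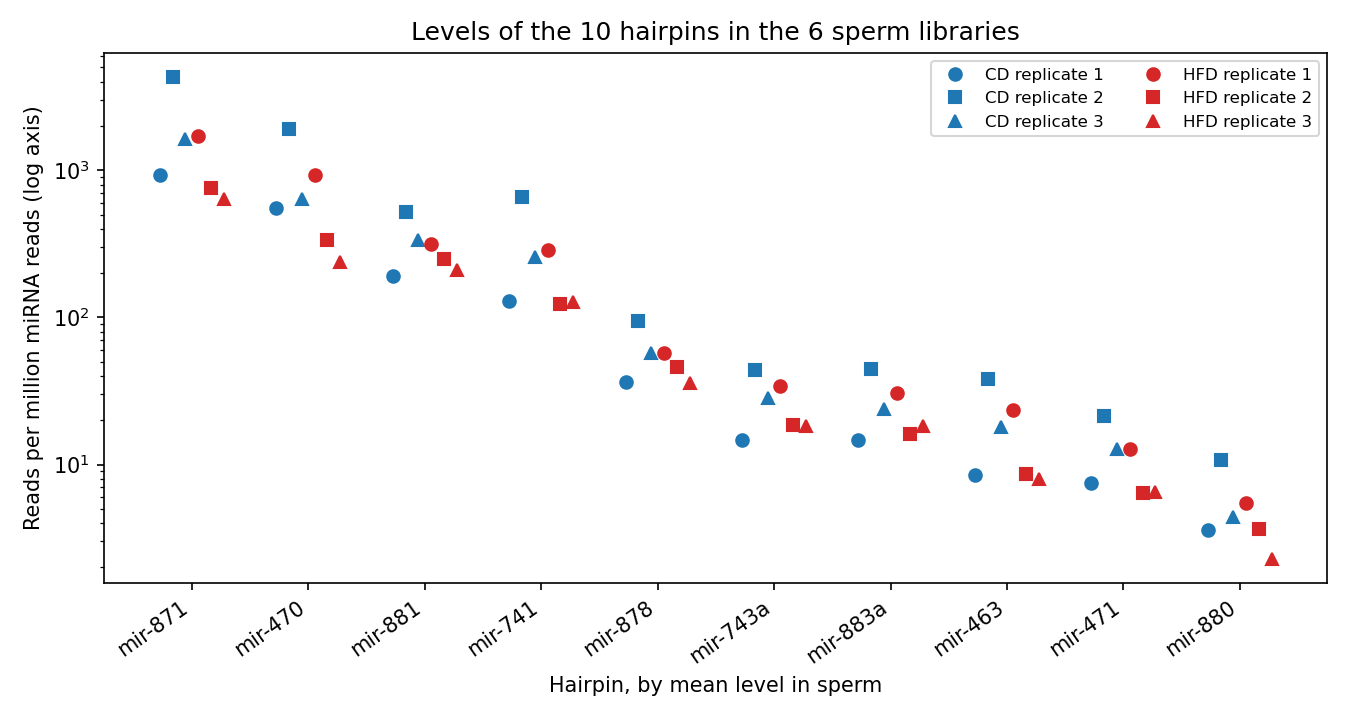
Level of each hairpin (CPM, log axis) in the 6 sperm libraries, with hairpins ordered by their mean. Points are single libraries, blue for the CD and red for the HFD. For all 10 hairpins the blue square, CD replicate 2, is the highest point, and the levels run from 4299 CPM for mir-871 to 2.29 CPM for mir-880.

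Position in the cluster and level did not run in parallel. The first hairpins along the transcribed strand, mir-470 and mir-871 at 3.52 kb, had the highest means, 765 and 1660 CPM over the 6 sperm libraries. mir-881 at 12 kb and mir-880 at 13.4 kb have only mir-878 between them, and had means of 304 and 5.01 CPM. mir-741 at 17.2 kb had a mean of 263 CPM between the low neighbours mir-463 and mir-471, at 17.5 and 11.2 CPM. At the far end mir-883a and mir-743a, at 33.2 and 37.2 kb, had means of 24.8 and 26.3 CPM.

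**Figure D2:**
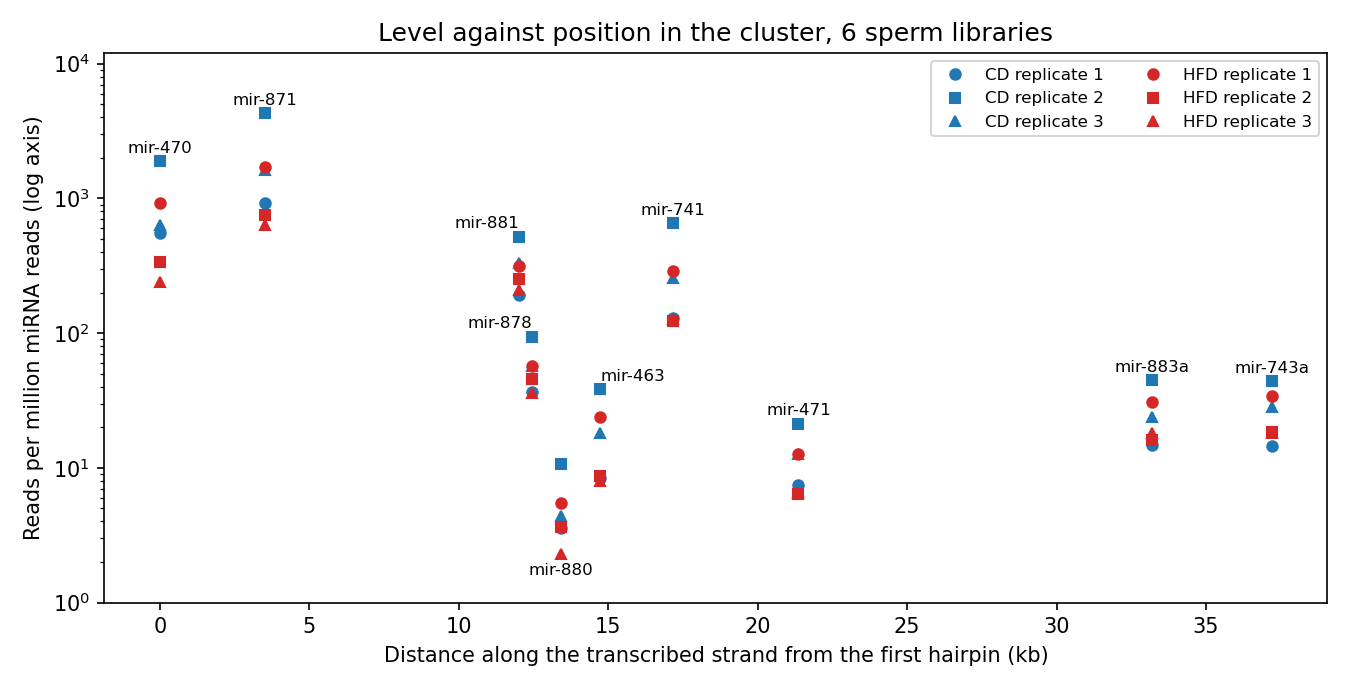
Level of each hairpin (CPM, log axis) against its distance in kb along the transcribed strand from the first hairpin, mir-470. Points are the 6 sperm libraries, blue for the CD and red for the HFD. The 2 hairpins within 3.52 kb of the start have the highest means, and the 3 hairpins between 12 and 13.4 kb span means from 304 to 5.01 CPM.

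The 10 hairpins varied together across the sperm libraries. All 10 were highest in CD replicate 2, all 10 had CD replicate 1 as their lowest CD library, and all 10 had HFD replicate 1 as their highest HFD library. CD replicate 2 was the highest library for 17.1% of the 257 hairpins with a mean of at least 100 reads in sperm. CD replicate 2 exceeded CD replicate 1 by 2.58 to 5.07 times among the members, and HFD replicate 1 exceeded HFD replicate 3 by 1.52 to 3.89 times. Over the 6 libraries the correlation of log2(CPM + 1) between a member and the summed other members ran from 0.911 for mir-743a to 0.995 for mir-871. These correlations are over 6 libraries that share their depth and composition, and CD replicate 2 weighs heavily in them.

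The spread was wide for sperm miRNAs. Among the 257 hairpins the highest library exceeded the lowest by a median of 1.66 times. For the 9 members with at least 100 reads on average the median was 3.34 times, from 2.64 times for mir-878 to 7.93 times for mir-470. The SD of the log2 level within a diet had a median of 0.674 for these members and of 0.288 for all 257. All 9 members lay above 89.1% or more of the hairpins in this ratio.

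Markers of other cells also varied between the sperm libraries. mir-202 was at 6.94, 59.8 and 19.6 CPM in CD replicates 1 to 3 and at 11.3, 7.75 and 4.86 CPM in HFD replicates 1 to 3, so it too was highest in CD replicate 2. The sum of the germ cell list, mostly mir-34c, was highest in CD replicate 2, at 3411 CPM. In HFD replicate 1, at 2110 CPM, it was lower than in the other HFD libraries. The hairpins of this list were split as well. mir-34b was highest in HFD replicate 1, at 580 CPM, and next in CD replicate 2, at 456 CPM, whereas mir-34c and mir-449a were lowest in HFD replicate 1. The sum of the red blood list, mostly mir-486a and mir-486b, was highest in HFD replicate 1, at 50595 CPM. Among the CD libraries it was lowest in CD replicate 2, at 26237 CPM. mir-451a and mir-144 were instead lowest of the CD libraries in CD replicate 1, at 1155 and 101 CPM. In HFD replicate 1 mir-451a was at its highest, 2420 CPM, but mir-144, at 150 CPM, was below the other HFD libraries. The white blood list was highest in HFD replicate 1, at 2168 CPM. The sums of the epithelial and muscle lists, led by mir-141 and mir-143, were lowest in HFD replicate 1, at 8946 and 30652 CPM. Both sums were highest in HFD replicate 3, at 14327 and 56169 CPM. The epithelial hairpins were split. mir-200b and mir-200c were highest in HFD replicate 1, at 2591 and 1923 CPM, and next in CD replicate 2, at 2361 and 1701 CPM. mir-141 and mir-200a were lowest in HFD replicate 1, and mir-429 was lower there than in the other HFD libraries. The part of these in the family's levels was not tested.

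Outside the family, the hairpins whose levels were most like its sum were mir-1194, mir-7242, mir-202, mir-1981 and mir-7210, with Pearson's r of 0.992, 0.957, 0.954, 0.946 and 0.944 over the 6 sperm libraries. The median over the 242 hairpins compared was 0.112. Without CD replicate 2 and HFD replicate 3, the libraries farthest from the median, r was 0.959, 0.806, 0.755, 0.951 and 0.725 over 4 libraries. mir-1194 ranged from 19 to 93.1 CPM and mir-1981 from 16.9 to 37.2 CPM.

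The other mouse hairpins of the mir-506 family were also highest in CD replicate 2. Of the 12 listed, 11 were found in the files, and they summed to 442, 1254 and 651 CPM in CD replicates 1 to 3 and 875, 414 and 389 CPM in HFD replicates 1 to 3. It was the highest library for 10 of these 11 hairpins, the exception being mir-465d, with 2.66 estimated reads in all sperm libraries. The highest were mir-743b, inside the 37.3 kb span, at 98.3 to 280 CPM, and the 2 copies of mir-465c, upstream of mir-470, at 70.2 to 267 CPM each. The copies of mir-465b and mir-465c share mature sequences, and the authors' annotation divided their reads, so their separate levels are uncertain.

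Whether the high-fat diet was accompanied by a different level of the family in sperm was tested in the fit of 451 hairpins with edgeR's quasi-likelihood test. No member was called at an adjusted p under 0.05 and no other hairpin was (0% of those tested), with 31 hairpins (6.87%) at an unadjusted p under 0.05. DESeq2 called 8 hairpins and 0 members, with 3 members among 29 hairpins of 451 (6.43%) at an unadjusted p under 0.05. The summed family was at 4175 ± 3041 CPM (SD, n = 3) on the CD and 2087 ± 1144 CPM on the HFD, a difference of -1.0 on the log2 scale that lay within the spread of the CD libraries. All 10 members had a fitted log2 fold change below 0, from -1.20 to -0.38, with a median of -0.76 against -0.01 over all 451 hairpins. The 10 were not independent, since they varied together from library to library.

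mir-871 had the lowest fitted value, a log2 fold change of -1.20 (SE 0.51, edgeR's quasi-likelihood test, unadjusted p = 0.0423, adjusted p = 0.663), and was the 1 member of 10 with an unadjusted p under 0.05. mir-470 followed at -1.09 (SE 0.54, adjusted p = 0.913) and mir-741 at -1.01 (SE 0.51, adjusted p = 0.913). mir-471, mir-880 and mir-463 were at -0.77, -0.77 and -0.74. The fold changes of mir-878, mir-881, mir-883a and mir-743a were closer to 0, at -0.51, -0.50, -0.43 and -0.38. By a normal approximation the 95% interval of mir-871 ran from -2.19 to -0.21 and that of mir-743a from -1.09 to 0.34. Changes of considerable size in most members would thus have gone uncalled. These intervals are too narrow for 6 libraries. That of mir-470 ran from -2.15 to -0.03, though its unadjusted p was 0.0754 by edgeR's quasi-likelihood test.

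The size of the difference rested largely on CD replicate 2. Without it all 10 fitted values were still below 0, but their median was -0.24, mir-871 was at -0.52 (edgeR, adjusted p = 0.999), and the CD mean of the family sum fell from 4175 to 2449 CPM against 2087 CPM on the HFD. In CPM without CD replicate 2, the HFD mean was the lower for 7 members and the higher for mir-743a, mir-883a and mir-463. Without HFD replicate 1 the median was -1.04, with 5 members and 80 of 446 hairpins (17.9%) at an unadjusted p under 0.05 and 0 called. Without CD replicate 1 it was likewise 5 members, of 35 hairpins among 443 (7.90%), and 0 called. For all 10 members the CPM of the diets overlapped, whereas they did not for 28 hairpins (6.21%) among the 451.

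**Figure D3:**
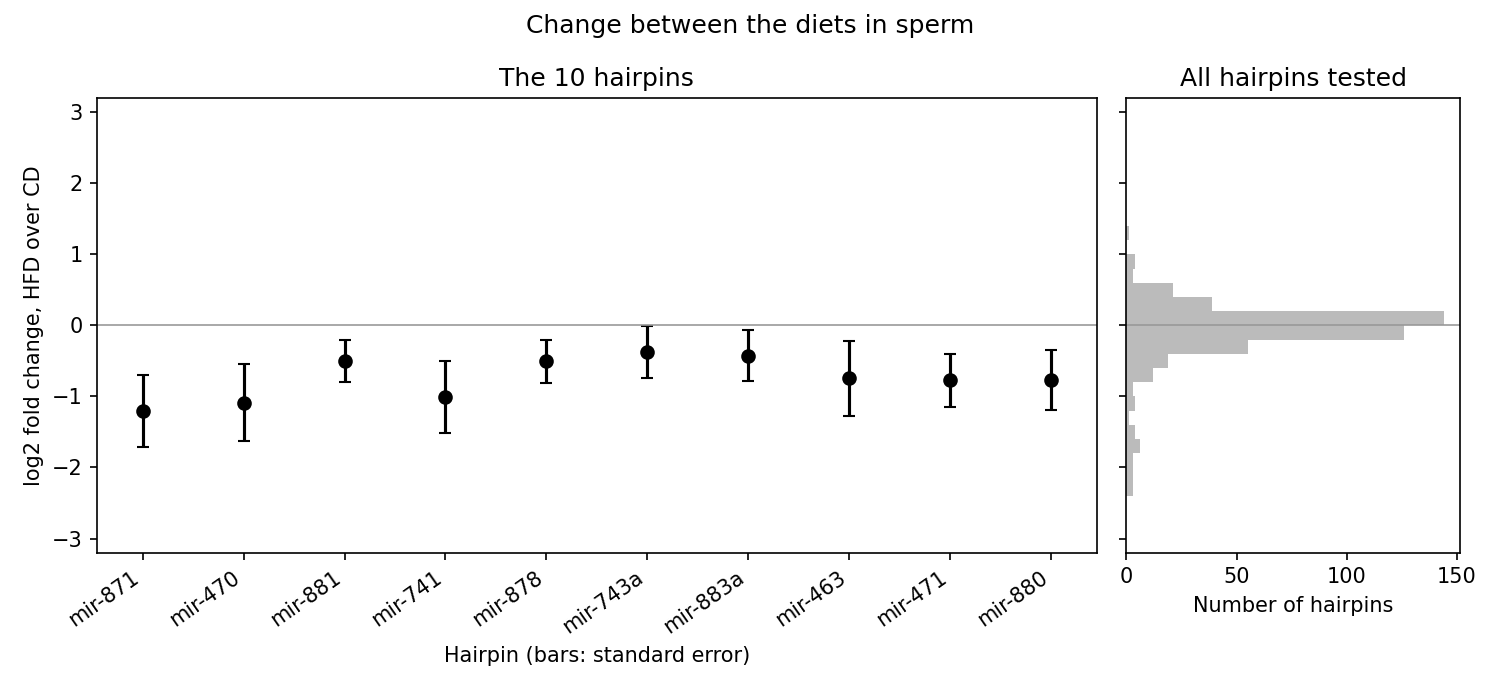
Fitted log2 fold change of HFD over CD for the 10 hairpins, with bars of 1 standard error (left), and the distribution of the same value over all 451 hairpins tested (right, number of hairpins per bin of 0.2). All 10 points lie below 0, between -1.20 and -0.38, and none was called after adjustment.

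The other lists had no call either. The other mir-506 family hairpins had a median log2 fold change of -0.61 over 10 tested, from -1.95 for mir-547 to -0.42 for mir-743b, with 0 called. mir-202 was at -1.87 (edgeR, adjusted p = 0.401). The epithelial, red blood and white blood lists had medians of 0.09, 0.26 and 0.29, and the muscle and germ cell lists of -0.0036 and -0.31, with 0 called in each.

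The composition of the family was compared between the diets as each hairpin's share of the family's reads, which does not depend on the family's level. mir-871 gave 49.2%, 56.4% and 54.4% of the reads in CD replicates 1 to 3 and 50.1%, 48.2% and 48.9% in HFD replicates 1 to 3. mir-743a gave 0.771%, 0.579% and 0.939% on the CD and 1%, 1.18% and 1.4% on the HFD. mir-883a gave 0.778%, 0.586% and 0.797% on the CD and 0.905%, 1.03% and 1.41% on the HFD. The last 2, the members at the far end of the cluster, were the 2 of 10 (20%) whose shares did not overlap between the diets. Their differences of 0.432 and 0.395 percentage points had an exact 2-sided permutation p = 0.1 each, the smallest that 3 against 3 allows, and an adjusted p = 0.429 over the 10 shares. In CD sperm mir-881 took 9.35% ± 2.24 (SD, n = 3) of the reads and in HFD sperm 13.8% ± 3.88, a difference with a permutation p = 0.3 by the exact test (0.429 adjusted). The ratio of mir-871 to mir-881 reads was 4.87, 8.26 and 4.9 in CD replicates 1 to 3 and 5.37, 3.01 and 3.05 in HFD replicates 1 to 3, so it was highest in CD replicate 2 and, as with the levels, HFD replicate 1 lay above CD replicates 1 and 3. Shares sum to a fixed total, so a lower share of 1 hairpin raises those of the others.

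The comparison of sperm with TM4 cells asked whether hairpins known from germ cells were lacking in a Sertoli cell line. The family was almost absent there. It had 5 and 16 reads in Ctrl replicates 1 and 2, which is 0.178 CPM (0.0577 to 0.414) and 0.448 CPM (0.256 to 0.728). CC replicates 1 and 2 had 38 and 16 reads, and Ang OE replicates 1 and 2 had 28 and 34. In all 6 TM4 libraries together mir-871 and mir-470 supplied 114 of 137 reads, a share of 83.2% (75.9% to 89.0%, exact Clopper-Pearson). mir-743a, mir-880, mir-883a and mir-463 had 0 reads in each TM4 library, which allows up to 0.0840 to 0.108 CPM per library.

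**Figure D4:**
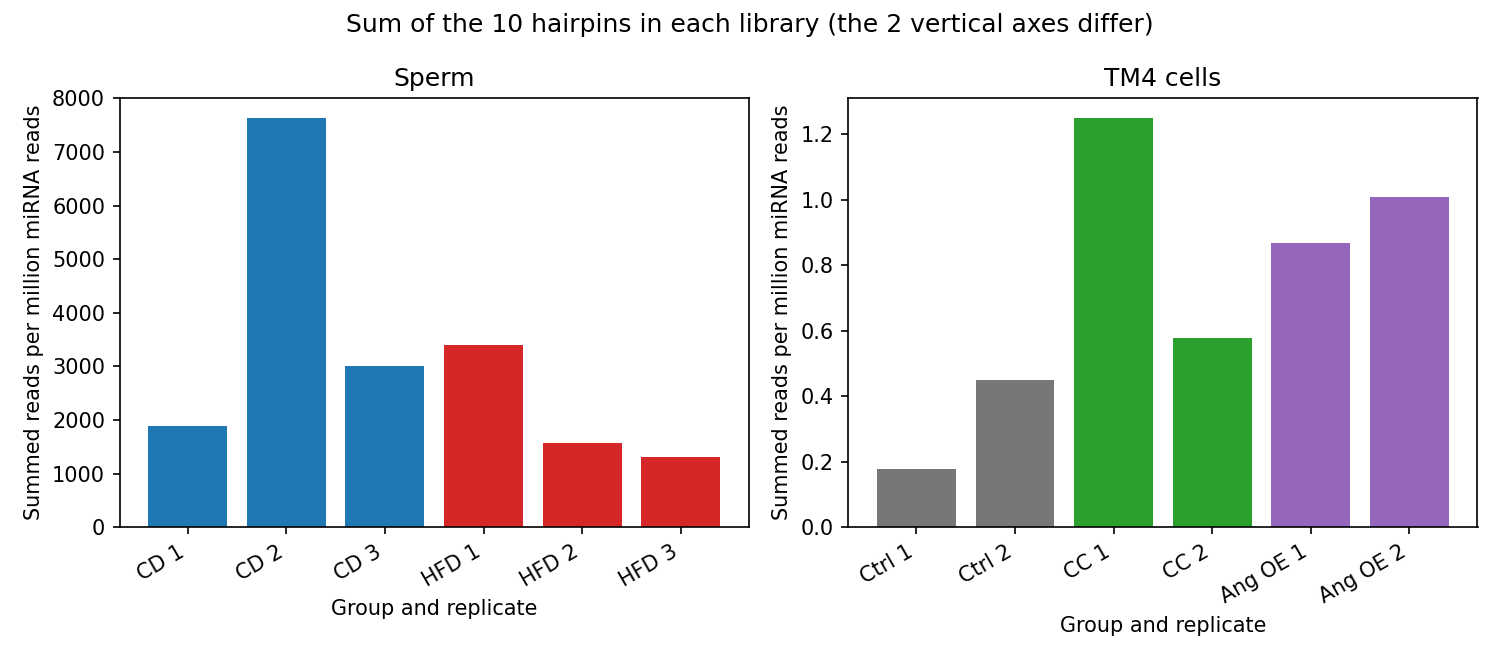
Summed level of the 10 hairpins (CPM) in each sperm library (left) and each TM4 library (right), with different vertical axes that both start at 0. Bars are single libraries. The sperm libraries sit between 1300 and 7627 CPM and the TM4 libraries between 0.178 and 1.25 CPM.

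In CD sperm against Ctrl TM4 cells, edgeR's quasi-likelihood test over 590 hairpins called all 10 members higher in sperm, with adjusted p between 6.15e-07 and 1.97e-05. None of the 10 reached 10 reads in a Ctrl library, so all passed the filter through the sperm libraries alone, where they are high, and the calls are given as a description. The background was high, with 77.1% of hairpins called and 40.7% called higher in sperm, so the call by itself does not set the members apart. The mean of mir-871 in CD sperm, 2289 ± 1776 CPM (SD, n = 3), was 12180 times its level in the pooled Ctrl libraries (12 reads, interval 6973 to 23572). mir-470 was 10950 times higher (6 Ctrl reads, 5031 to 29839) and mir-741 7410 times (3 Ctrl reads, 2536 to 35932). The other 7 had no Ctrl read, and against a floor of 3 reads over both Ctrl libraries they were at least 7419-fold higher for mir-881, 1332-fold for mir-878 and 617-fold for mir-743a. The bound was at least 592-fold for mir-883a, 459-fold for mir-463, 294-fold for mir-471 and 133-fold for mir-880. Without CD replicate 2 the CD means were 1.33 to 1.80 times lower, and by over 1.5 times for 5 members. The folds were then 6832 for mir-871, 6331 for mir-470 and 4112 for mir-741, and the bounds at least 282-fold for mir-463 and 85.2-fold for mir-880. All Ctrl reads of mir-470 and mir-741 came from Ctrl replicate 2. Without Ctrl replicate 1 their folds were 6122 and 4143, and without Ctrl replicate 2 they were at least 9657-fold and 3267-fold higher against 3 reads in the remaining library. With 1 Ctrl library the bounds of the 7 hairpins without Ctrl reads were lower as well, by 1.79 times without Ctrl replicate 1 and 2.27 times without Ctrl replicate 2. They then ran from at least 74.2-fold for mir-880 to 4148-fold for mir-881, and from 58.5-fold to 3271-fold. Source, culture and preparation differed together, so they cannot be told apart.

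The TM4 contrasts asked whether Compound C or Ang overexpression changed miRNAs in these cells. Both used the same Ctrl libraries in a fit of 533 hairpins. At this depth 2 members, mir-871 and mir-470, passed the filter of 10 reads in 2 libraries, and the other 8 were too scarce to test. mir-871 had 5 and 7 reads in Ctrl replicates 1 and 2, 14 and 13 in CC, and 13 and 20 in Ang OE. In CPM both Ctrl libraries lay below each treated library for mir-871, which was so for 23.1% of the 533 hairpins in CC and 25.1% in Ang OE. mir-470 had 0 and 6 reads in Ctrl, 21 and 2 in CC, and 11 and 2 in Ang OE, and these groups overlapped.

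In CC against Ctrl, 22 of 533 hairpins were called (4.13%) and 0 of the 2 members, neither of which had an unadjusted p under 0.05. mir-871 had a log2 fold change of 1.29 (SE 0.64, edgeR's quasi-likelihood test, adjusted p = 0.294) and mir-470 of 2.03 (SE 1.13, adjusted p = 0.374). In Ang OE against Ctrl, 204 hairpins were called (38.3%), 24.2% of all tested in the higher direction. mir-871 was higher in Ang OE, with a log2 fold change of 1.66 (SE 0.62, adjusted p = 0.0452), and mir-470 was at 1.33 (SE 1.23, adjusted p = 0.412). No Ctrl library reached 10 reads of mir-871, so it passed the filter only through the treated libraries, where it is high. The call rests on 12 against 33 reads and was lost without Ctrl replicate 1 (adjusted p = 0.171), without Ctrl replicate 2 (0.146) and without Ang OE replicate 2 (0.191). It was lost as well when all miRNA reads were the library size without TMM scaling (edgeR, adjusted p = 0.0848), a setting in which the called hairpins split into 81 higher and 139 lower, against 129 and 75 with TMM.

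Of the germ cell list, 3 of 4 hairpins tested were also called higher in Ang OE, mir-34c among them, at 980 and 940 CPM in Ctrl and 1956 and 1834 CPM in Ang OE. mir-202 was at 0.071 and 0 CPM in Ctrl and at 0 and 0.178 CPM in Ang OE. The muscle list had 2 of 4 hairpins called higher and summed to 49715 to 55567 CPM in Ctrl and 94556 to 129039 CPM in Ang OE, while the median log2 fold change of the 4 was -0.50. The red blood list had 2 of 3 called lower and summed to 2737 to 2857 CPM in Ctrl and 1762 to 1784 CPM in Ang OE. The epithelial and white blood lists had 0 called of 2 and 3 tested in Ang OE. In CC the red blood list likewise had 2 of 3 called lower and summed to 1879 to 1956 CPM. The germ cell, muscle, epithelial and white blood lists had 0 called in CC. The part of these lists in the value of mir-871 was not tested.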

How the data were processed

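The authors trimmed small RNA reads with Trimmomatic 0.40 after FastQC 0.12.0 and annotated those of the selected lengths with SPORTS1.1, which takes miRNA matches after those to rRNA and tRNA and allows a mismatch. The labels name mm10. The deposited values are estimated counts per class and subclass and library, with a read divided among the subclasses it matched and no scaling. All 12 libraries were used, grouped by their labels.

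Members and lists were chosen with earlier results of these data known. All 10 members were named, with the other mir-506 family hairpins and the 5 hairpins outside both lists (mean of at least 100 reads in sperm) most correlated with the family sum. Counts were rounded and tested with edgeR 4.0.16 in R 4.3.3 (quasi-likelihood test, TMM over miRNAs, at least 10 reads in 3 sperm libraries or 2 otherwise, Benjamini-Hochberg adjusted p under 0.05 over all hairpins tested). SE is the absolute log2 fold change over the root of F, and the 95% intervals of fold changes use the normal approximation. TM4 groups were fitted together. Alternatives were other library sizes, DESeq2 1.42.0, other filters, genome-matched reads alone, each library left out, the replicate number as a block, a 2-group model and ComBat-seq (sva 3.50.0). The authors used ComBat-seq on the cell line data against differences in technical processing. The labels name no batch, so the replicate number stood in as the batch here, and this is not the authors' correction. Sequences and positions are from RefSeq (GRCm38.p6), in which all 10 members were matched. Python 3.11.15, pandas 2.3.3, numpy 2.4.6, scipy 1.17.1 and matplotlib 3.10.9 were used. A count of 0 was taken to allow up to 3 reads, and depth sets the CPM that these stand for. Read lengths and strands of the hairpin were not analysed here.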

Additional observations from a re-analysis of the deposited data

How the results depend on the processing

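No member was called between the diets or between CC and Ctrl under any alternative that gave an adjusted p, and all fitted values of the members kept their direction in the 4 comparisons. In CD sperm against Ctrl, 10 members were called higher in each alternative, and 9 with at least 100 reads. This is no support, since they passed each filter applied through the sperm libraries alone. In Ang OE against Ctrl, the number of members called went from 1 to 0 with all miRNA reads as library size, with a library size of the clean reads less rRNA, and with the replicate number as a block, and was 0 to 1 when a library was left out. The adjusted p of mir-871 ran from 0.0118 to 0.191 over these alternatives, and it was called in 5 of 12 that gave one. The lowest, 0.0118, came from edgeR after ComBat-seq with the replicate number as the batch. DESeq2 gave no adjusted p for a TM4 member, and at least 100 reads left no TM4 member to test.

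Over all hairpins, DESeq2 called 8 between the diets in place of 0. CC against Ctrl gave 22 calls, 35 with the replicate number as a block, 39 with ComBat-seq, and 0 to 26 when a library was left out, with 0 without either CC replicate. ComBat-seq took the replicate number as the batch, which the labels do not name as one. The cause of these differences in calls was not tested. Same-numbered libraries did not deviate together (r of -0.406, -0.386 and 0.088 for CD and HFD, -0.108 for Ctrl and CC, -0.196 for Ctrl and Ang OE). With 2 libraries per TM4 group, crossed numbers give the same r with the other sign. The check therefore cannot settle whether the numbers pair the samples or mark a batch. The block changed no call of a member but that of mir-871 in Ang OE. With the Ctrl numbers crossed, chosen after seeing the data, CC gave 55 calls and Ang OE 229, with 0 members in both.

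Scaling by all miRNA reads without TMM moved the median log2 fold change of all hairpins from -0.01 to 0.10 between the diets, from 0.06 to -0.21 in Ang OE and from -0.13 to -1.47 in CD sperm against Ctrl. In the last, 240 higher and 215 lower calls became 194 and 342. The family sum kept its direction throughout. Its log2 ratio between the diets was -1.0, -0.92 over clean reads less rRNA, and -1.54 to -0.23 when a library was left out. In the TM4 libraries 137 family reads were counted in all, and 8 of 10 members were too scarce there to test.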
